A study of Homo sapiens with 48 samples.

Results

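The genes described here encode the proteins of the cytoplasmic ribosome. They were taken as the protein-coding genes of the deposited table whose symbol begins with RPL or RPS followed by a number (with an optional A, X or L), together with RPLP0 to RPLP2 and RPSA, and without RPS27L. The rule used names only and found 80 of the 37706 genes in the table, 49 for the large subunit (RPL, RPLP) and 31 for the small subunit (RPS, RPSA). After a filter on low counts 78 of the 80 remained among 17749 tested genes. The 2 that did not are RPL10L and RPL3L, copies used in testis and in striated muscle: RPL10L had at most 1 count in any library and RPL3L at most 4.

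The study treated 4 established lines of germinal centre B-cell-like diffuse large B-cell lymphoma (GCB-DLBCL), Oci-Ly18, SUDHL6, Oci-Ly8 and Oci-Ly7, for 6 days. In each line cells received the solvent DMSO, the DOT1L inhibitor EPZ-5676 (DOT1Li, also spelled EZP-5676 in the labels), the EZH2 inhibitor GSK343 (EZH2i), or both inhibitors (combination), with 3 libraries in each of the 16 groups and one reseeding along the way. Poly(A)+ RNA was sequenced as 48 stranded libraries. The doses, and whether the 3 libraries of a group came from separate cultures, are not stated by the labels, so p-values measure the spread between these libraries, which may be technical. Each group is a single tumour-derived line, and bulk RNA cannot tell a change in every cell from a change in the share of cells.

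A ribosome holds one copy of nearly each of these proteins, the stalk proteins RPLP1 and RPLP2 excepted, and cells make them in matched amounts. Their messenger RNAs are short, abundant and mostly begin with a C followed by a run of pyrimidines, the 5′ terminal oligopyrimidine (TOP) motif, through which the kinase mTOR and the protein LARP1 control their translation. MYC raises the transcription of many of them, and germinal centre lymphomas often depend on that output. DOT1L methylates lysine 79 of histone H3 in transcribed genes, and EZH2 methylates lysine 27 of the same histone to silence genes.

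The first bases of the messages whose values recur below show the shared start. Each line gives 10 bases before and 20 bases from a RefSeq start of the gene (GRCh38.p14), 5′ to 3′ on the gene's strand. Capitals mark a run of at least 8 C or T that lies on the start or comes within 5 bases of it. RPS27A had 3 starts in RefSeq's promoter table, and the start shown was chosen for having such a run.

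RPS6 (chr9:19380217-19380246, minus strand): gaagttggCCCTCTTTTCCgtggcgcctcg
RPS28 (chr19:8321486-8321515, plus strand): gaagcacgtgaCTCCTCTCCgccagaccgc
RPL22 (chr1:6199576-6199605, minus strand): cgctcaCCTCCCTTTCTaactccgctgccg
RPL14 (chr3:40457329-40457358, plus strand): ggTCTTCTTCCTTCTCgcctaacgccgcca
RPS27A (chr2:55232668-55232697, plus strand): gggcctgcgcggcgTTCTTCCTTTTCgatc
RPS21 (chr20:62387093-62387122, plus strand): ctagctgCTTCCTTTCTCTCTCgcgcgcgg
RPL12 (chr9:127451387-127451416, minus strand): cgatttccggcctctcggctttcggctcgg
RPL27 (chr17:42998409-42998438, plus strand): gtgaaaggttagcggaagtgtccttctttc

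RPL12 and RPL27 are shown because they had no such run that close to the start; the run at the end of the RPL27 window lies farther downstream. RefSeq's promoter table had entries for 63 of the 80 genes. A run of at least 8 pyrimidines within 5 bases of the start was present in 51 of the 63 (81%), against 3840 of 27305 genes in the same table (14.1%). Here and below, a gene with several entries counted if any of them had the match. The longest run in the set was 25 bases, at RPL7A. In the 300 bases around the start, the letters CCGGAAGT, bound by ETS factors such as GABPA, were found on either strand in 9 of the 63 (14.3%, against 4.95% of all genes), and AAGATGGC, the core letters of YY1, in 6 (9.52%, against 3.52%). The E-box CACGTG, which MYC can bind, was in 4 of the 63 (6.35%, against 8.77% of all genes), RPS28 among them as the window above shows. TATAAA was in 6 (9.52%, against 14%). These are matches of letters in a window and do not show binding.

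The libraries held between 5174269 and 18845074 counts (median 14499938). The smallest was the third DOT1Li library of Oci-Ly8, and the next had 11391942. All 6 B-cell markers and all 6 germinal centre markers examined were above 1 CPM (counts scaled to a common library size) in at least one line. So were 3 of the 5 T-cell markers, which summed to at most 60.8 CPM, against 1013 to 2647 for the B-cell markers. The same held for 3 of 5 natural killer and cytotoxic and 4 of 6 epithelial and fibroblast markers. Of 6 listed myeloid markers 5 were in the deposited table, and 3 of them were above 1 CPM in at least one line. Of 5 listed erythroid and megakaryocytic markers 2 were in the table, and 1 was above 1 CPM. Each of these lists summed to at most 25.2 CPM. The third DMSO library and the third DOT1Li library of Oci-Ly8 stood apart from the rest on the genes described here. In that DMSO library the 78 genes had a median log2 level 0.68 above its 2 fellow libraries, with 77 of 78 above, and in that DOT1Li library 0.62 above, with 76 of 78 above. Other short messages moved with them: 675 further coding genes with a principal transcript of up to 1000 bases had medians of 0.50 and 0.41, while 12703 longer ones had 0.00 and -0.01. Both libraries also had the lowest slopes of log2 level on exonic length, 0.723 and 0.758, against 0.821 to 1.01 in the other 46. Values below are from the fit of all 48 libraries unless another fit is named, and many counts of called genes are given again without these 2. They enter the shared estimate of the spread, so that leaving them out also changes the calls in the other lines. Levels are CPM scaled by the trimmed mean of M values (TMM) method, and a gene is called where edgeR's quasi-likelihood test gave a Benjamini-Hochberg adjusted p under 0.05 over all tested genes.

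In the untreated cells the lines differed widely in how much of their message pool these genes took up, and they did so together. The 80 genes summed to 42712 ± 1582 CPM in SUDHL6, 60455 ± 3676 in Oci-Ly7, 79898 ± 24326 in Oci-Ly8 and 87649 ± 1855 in Oci-Ly18 (SD, n = 3). Without the third library Oci-Ly8 was at 65918 ± 3304 (SD, n = 2), and its remaining libraries, at 68254 and 63582, overlapped the Oci-Ly7 range of 57691 to 64627. As raw shares of all counts, with no scaling, the means were 4.47% in SUDHL6, 5.93% in Oci-Ly7, 7.27% in Oci-Ly8 (6.21% without the third library) and 8.28% in Oci-Ly18. SUDHL6 was thus the lowest line and Oci-Ly18 the highest once that library is set aside, while Oci-Ly7 and Oci-Ly8 do not separate.

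**Figure D1:**
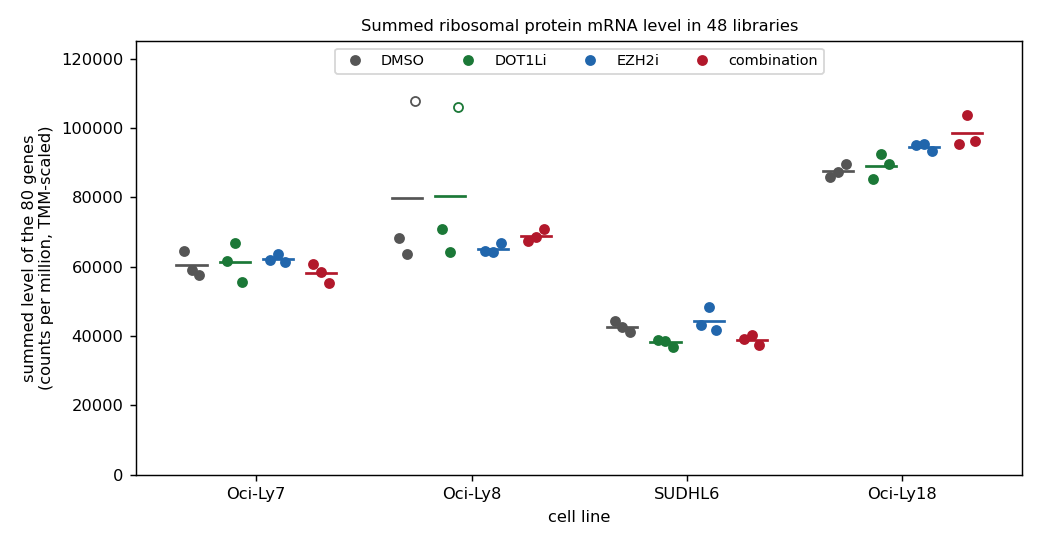
Summed level of the 80 genes (CPM, TMM-scaled, axis from 0) in each of the 48 libraries, by cell line and treatment. Points are libraries, bars are group means, and open circles are the third DMSO and DOT1Li libraries of Oci-Ly8, at 107858 and 106133, above every other library of that line.

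Gene by gene, SUDHL6 had the lowest mean for 76 of the 78 genes, and in 71 of them each of its 3 DMSO libraries lay below all 9 libraries of the other lines, a pattern found in 13.7% of all tested genes. Set against the mean of the other lines, a comparison added after the differences had been seen, 77 genes were lower in SUDHL6 (31.1% of all tested genes were called lower there). Only RPS9 was not, and without the 2 Oci-Ly8 libraries the count of 77 stayed and RPS9 was called higher. Oci-Ly18 had 55 genes called higher (38.6% of all genes) and 1, RPL21, called lower. Without the 2 libraries these counts were 74 and 2. Oci-Ly8 also had 55 called higher (37.2% of all genes), which fell to 40, with 9 lower, without them. The shares of all genes given here belong to the fit of all libraries, so the counts without the 2 are not set against a background. Oci-Ly7 had 19 lower (30.1% of all genes) and 6 higher. In 12 genes the 3 Oci-Ly18 libraries all lay above the other 9 (15.7% of all genes), and in 12 the 3 Oci-Ly8 libraries did (12.6%).

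The overall test for a difference among the 4 lines called 77 of 78 genes, all but RPS12, where it called 93.1% of all genes, so this count by itself is close to the background. The median gap between the highest and the lowest line was 0.98 on the log2 scale for the 78 genes and 1.38 for all tested genes, given here as a description without a test.

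**Figure D2:**
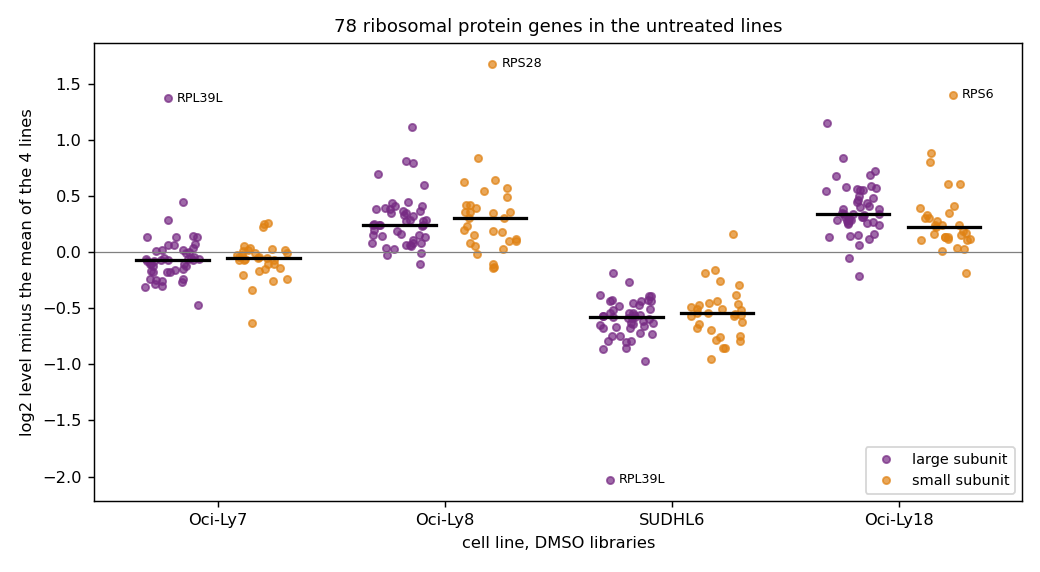
Log2 level of each of the 78 genes in DMSO, as a line's mean minus the mean of the 4 lines, with large-subunit and small-subunit genes side by side and black bars at the medians. Most genes sit below 0 in SUDHL6 and above 0 in Oci-Ly18, while RPL39L, RPS28 and RPS6 leave the band of the others.

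A few genes broke from the shared order. RPS6, the small-subunit protein that S6 kinase phosphorylates (ENSG00000137154, GRCh38 chromosome 9, 19375715 to 19380236), read 11490, 11588 and 11819 CPM in the Oci-Ly18 DMSO libraries. It read 3821, 3421 and 3289 in Oci-Ly7, 3607, 3284 and 5777 in Oci-Ly8, and 2400, 2332 and 2154 in SUDHL6. No library of another line came near the Oci-Ly18 values, which were 1.84 ± 0.11 (SE) higher on the log2 scale than the mean of the other lines (adjusted p = 3.16e-18). The balance of the subunits in that line turned on RPS6. The summed large-subunit level was 1.55 ± 0.006 times the small-subunit level in Oci-Ly18 and 1.78 ± 0.013, 1.83 ± 0.0093 and 1.73 ± 0.011 times in Oci-Ly7, Oci-Ly8 and SUDHL6 (SD, n = 3). With RPS6 left out the same ratio was highest in Oci-Ly18, at 2.35 ± 0.011, against 2.03 to 2.15 in the others.

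RPS28, a small protein at the messenger RNA exit of the small subunit (ENSG00000233927, chromosome 19, 8321158 to 8323340), was high in Oci-Ly8. Its DMSO libraries read 196, 182 and 332 CPM there, against 43 to 48.5 in Oci-Ly7, 37.7 to 40.2 in SUDHL6 and 60.6 to 64.4 in Oci-Ly18. All Oci-Ly8 libraries lay above all others, with or without the third, and the difference from the other lines was 2.29 ± 0.11 (SE), or 1.98 without the 2 libraries (adjusted p = 3.71e-20 and 1.21e-40). RPL39L, a copy of RPL39 best known from male germ cells (ENSG00000163923, chromosome 3, 187120948 to 187180908), had the widest range of the set, 3.41 on the log2 scale. It read 45.1, 42.3 and 44.9 CPM in Oci-Ly7, 18.4, 18.1 and 28.5 in Oci-Ly8, 19.5, 21.8 and 23.1 in Oci-Ly18, and only 3.43, 3.46 and 5.51 in SUDHL6. RPL17 and RPL22 were also among the 5 genes with the smallest p for a difference between lines, with Oci-Ly18 highest for both, and so was RPL8, a core protein near the peptidyl transferase centre. RPL8 read 2667, 2485 and 4180 CPM in Oci-Ly8 and 924, 864 and 865 in SUDHL6.

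Levels per length, in CPM for each 1000 bases of the principal transcript and averaged over the 4 DMSO means, ran from 5.72 for RPS10 to 3904 for RPS6 among the 78 genes. RPLP2, RPL19 and RPS24 followed RPS6 at 2994, 2789 and 2396. This order depends on the annotated length, which ran from 344 to 7686 bases and was longest for RPL37, at 142 CPM for each 1000 bases. Among the lowest were RPS10, RPL17 (19.4) and RPL39L (30.5). RPS10, RPL17 and RPL36A, the last at 43.9, have readthrough neighbours or near-identical copies that can share or remove their reads, and the treatment of such reads is not given in the sources used here. Their values are therefore uncertain. Rows for 910 ribosomal protein pseudogenes held between 1.11% and 1.39% as many counts as the 80 genes, in every library.

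With DOT1L inhibition the values of these genes stayed close to DMSO in 3 of the 4 lines and were slightly below DMSO for nearly all of them in SUDHL6. There the sum read 44293, 42712 and 41130 CPM in DMSO and 38907, 38655 and 36931 with DOT1Li. The groups did not overlap, and the ratio of the means was 0.894, with the large subunit at 0.892 and the small at 0.897. The median log2 fold change was -0.17 and 77 of the 78 genes were below 0, against a median of 0.00 for all genes.

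The edgeR test called 0 of the 78 in SUDHL6 with all libraries, although 10 had an unadjusted p under 0.05 and DESeq2 called 1; 2.11% of all genes were called lower. Without the 2 Oci-Ly8 libraries 31 were called lower (4.76% of all genes), 21 of the large and 10 of the small subunit, and with the 12 SUDHL6 libraries alone 40 were (7.70% of all genes). RPL14, a large-subunit protein (ENSG00000188846, chromosome 3, 40457292 to 40468587), had the smallest p in the fit without the 2. It went from 727, 697 and 681 CPM to 609, 580 and 574, with every treated library below every control. Its log2 fold change was -0.26 ± 0.09 (SE) with all libraries and -0.25 ± 0.05 without the 2, where the adjusted p was 0.000197. RPL5, which carries the 5S ribosomal RNA and can bind MDM2, was at -0.25 (adjusted p = 0.0014 without the 2 libraries). RPL39L was the exception to the direction, at 0.30 with an adjusted p of 0.423.

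In the other lines DOT1Li gave medians of 0.02 in Oci-Ly7, -0.01 in Oci-Ly8 and 0.02 in Oci-Ly18. No gene of the set was called by edgeR with all libraries in any of them, where 2.90%, 6.26% and 6.15% of all genes were. The counts at an unadjusted p under 0.05 were 0, 4 and 0, and DESeq2 called 0, 1 and 0. Over the average of the lines 0 of 78 were called and 0 had an unadjusted p under 0.05, also by DESeq2, against 10.3% of all genes called; without the 2 libraries 3 were lower (7.52% of all genes), RPL27, RPL36 and RPL4.

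The test of whether the DOT1Li effect differed among lines called 1 gene, RPL22 (adjusted p = 0.0405), where it called 5.14% of all genes. RPL22 is an RNA-binding protein of the large subunit (ENSG00000116251, chromosome 1, 6185020 to 6209389). It was at 0.18 ± 0.07 (SE) in Oci-Ly8 and -0.21 ± 0.07 in SUDHL6, where its libraries went from 78.1, 77.4 and 71.8 CPM to 65.6, 68.8 and 62.3. Oci-Ly7 and Oci-Ly18 were at 0.10 and 0.07. The call was lost on leaving out single libraries of each of the 4 lines. Leaving out the third Oci-Ly8 DMSO library gave 5 calls, a count not set against a share of all genes.

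With EZH2 inhibition few of these genes passed the threshold in Oci-Ly7, SUDHL6 and Oci-Ly18 with all libraries, and most values lay above DMSO in Oci-Ly18. In Oci-Ly18 the sum went from 85959, 87354 and 89634 CPM to 95111, 95423 and 93246, a ratio of 1.08 with no overlap, and 67 of 78 genes were above 0 with a median log2 fold change of 0.10. With all libraries 1 gene was called higher there, RPL22 at 0.21 ± 0.07 (SE, adjusted p = 0.0159), against 13% of all genes. Without the 2 Oci-Ly8 libraries 14 were, against 14.8%, among them RPL10, which joins the large subunit last, RPL28, RPS2 and RPS12. The first share is below the background and the second near it. RPL36A was the gene of the set with the largest fall in this line: its libraries read 31.6, 31.1 and 31.3 CPM in DMSO and 21, 21.9 and 23.8 with EZH2i, with a log2 fold change of -0.49 ± 0.11 (SE, adjusted p = 0.000684).

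In Oci-Ly8 the apparent fall rested on the third DMSO library. With all libraries 21 genes were called lower (7.94% of all genes) and all 78 were below 0 with a median of -0.29. Without the 2 libraries the median was -0.02 and 1 gene was called lower (5.23% of all genes). That gene was RPL17, a protein at the exit of the peptide tunnel (ENSG00000265681, chromosome 18, 49488453 to 49492508). It read 11.9, 12.1 and 12.1 CPM in DMSO and 9.25, 6.40 and 7.06 with EZH2i, at -0.67 both ways (adjusted p = 1.8e-05 with all libraries and 0.000111 without). RPL17 was also called lower in SUDHL6 (-0.37) and in Oci-Ly18 (-0.29) but stood at 0.16 in Oci-Ly7.

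In Oci-Ly7 EZH2i gave a median of 0.06 and 0 calls, with 0 at an unadjusted p under 0.05 and 0 by DESeq2 (13.7% of all genes were called). In SUDHL6 the median was 0.04 and RPL17 was the only call with all libraries (22.7% of all genes were called), and it was lost without the third DMSO library or the second or the third EZH2i library. Over the average of the lines 3 were called lower (12.5% of all genes): RPL17 at -0.29 ± 0.05, RPL36A at -0.16 ± 0.06 and RPL27 at -0.17 ± 0.06 (SE; adjusted p = 2.36e-05, 0.0354 and 0.045). Without the 2 libraries 22 were called higher (16.5% of all genes), RPL10 with the smallest p, and 2 lower. The EZH2i effect differed among lines for 2 genes, RPL17 and RPL36A (24% of all genes), and for 7 without the 2 libraries. Leaving out only the second Oci-Ly8 DMSO library gave 48. No share of all genes is given for those fits, so the 7 and the 48 are not set against a background.

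**Figure D3:**
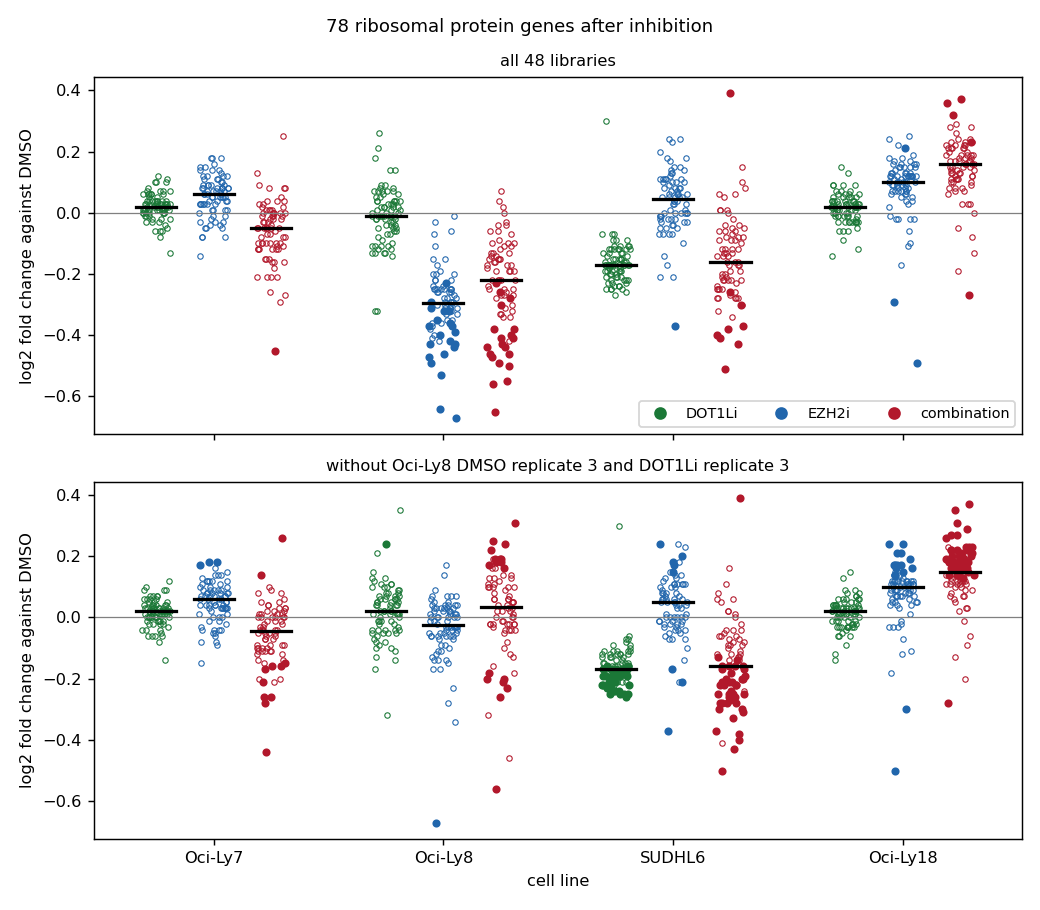
Log2 fold change against DMSO of each of the 78 genes in each line and treatment, with all 48 libraries (top) and without the third DMSO and DOT1Li libraries of Oci-Ly8 (bottom). Filled points passed an adjusted p of 0.05, open points did not, and black bars are medians. In SUDHL6 the DOT1Li and combination clouds lie below 0, and in Oci-Ly18 the combination cloud lies above 0. The Oci-Ly8 clouds for EZH2i and the combination move up to about 0 in the lower panel.

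With combined inhibition most of these genes lay below DMSO in SUDHL6 and above DMSO in Oci-Ly18. In SUDHL6 the sum went from 44293, 42712 and 41130 CPM to 39191, 40424 and 37431, a ratio of 0.913, and 68 of 78 genes were below 0 with a median log2 fold change of -0.16. In Oci-Ly18 it went from 85959, 87354 and 89634 CPM to 95272, 103736 and 96384, a ratio of 1.12, and 72 of 78 genes were above 0 with a median of 0.16. Neither pair of groups overlapped, and in both lines the ratios of the 2 subunits were close (0.915 and 0.911 in SUDHL6, 1.12 and 1.13 in Oci-Ly18 for large and small). With library totals in place of TMM the SUDHL6 median was -0.04 and the Oci-Ly18 median 0.24. That scaling moves the median of all genes from 0.05 to 0.17 and from 0.05 to 0.13, and relative to it the medians kept at -0.21 and 0.11 under both scalings. As a raw share of counts the genes took 4.47% in SUDHL6 DMSO and 4.43% with the combination, and 8.28% and 9.8% in Oci-Ly18.

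With all libraries 8 genes were called lower and 1 higher in SUDHL6 (16.8% of all genes were called lower), and 4 higher and 1 lower in Oci-Ly18 (21.1% of all genes were called higher). Without the 2 Oci-Ly8 libraries the counts were 41 lower and 1 higher in SUDHL6 (19% of all genes lower) and 44 higher and 1 lower in Oci-Ly18 (23% of all genes higher). Each line's 12 libraries alone gave 49 lower in SUDHL6 (26.3% of all genes) and 50 higher in Oci-Ly18 (26.2%). Within the fit of all libraries, leaving out the first DMSO library of the line gave 4 calls in SUDHL6 and 2 in Oci-Ly18. The shares of the set were thus below the background in the fit of all libraries. They were above it without the 2 Oci-Ly8 libraries and with each line's 12 libraries alone. No share of all genes is given for the fits that left out a first DMSO library. The difference among lines in the combination effect was called for 16 of 78 genes with all libraries (43.8% of all genes) and for 60 without the 2 (48.7%). Here too the share was below the background in the first of these fits and above it in the second. The 2 libraries were set aside for standing apart on these same genes. The rise of the shares without them is therefore no separate support for a change of the set. Leaving out single libraries gave from 4 calls, without the second Oci-Ly18 combination library, to 40, without the second Oci-Ly8 DMSO library. These 2 counts are not set against a share of all genes.

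RPL14 and RPL22 show the contrast. RPL14 went from 727, 697 and 681 CPM to 538, 553 and 529 in SUDHL6 (-0.38 ± 0.09 SE, adjusted p = 0.000909) and was the fall with the smallest p there. In Oci-Ly18 it went from 1203, 1225 and 1234 to 1323, 1440 and 1366, with no overlap, at 0.17 (adjusted p = 0.00352 without the 2 libraries). RPL22 went from 126, 129 and 135 CPM to 163, 172 and 171 in Oci-Ly18 (0.37 ± 0.07 SE, adjusted p = 1.46e-05), the rise with the smallest p there, and stood at -0.14 in SUDHL6. Both are among the 3 genes with the smallest p for a difference among lines in this effect, at adjusted p = 0.00408 for RPL14 and 0.000207 for RPL22.

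**Figure D4:**
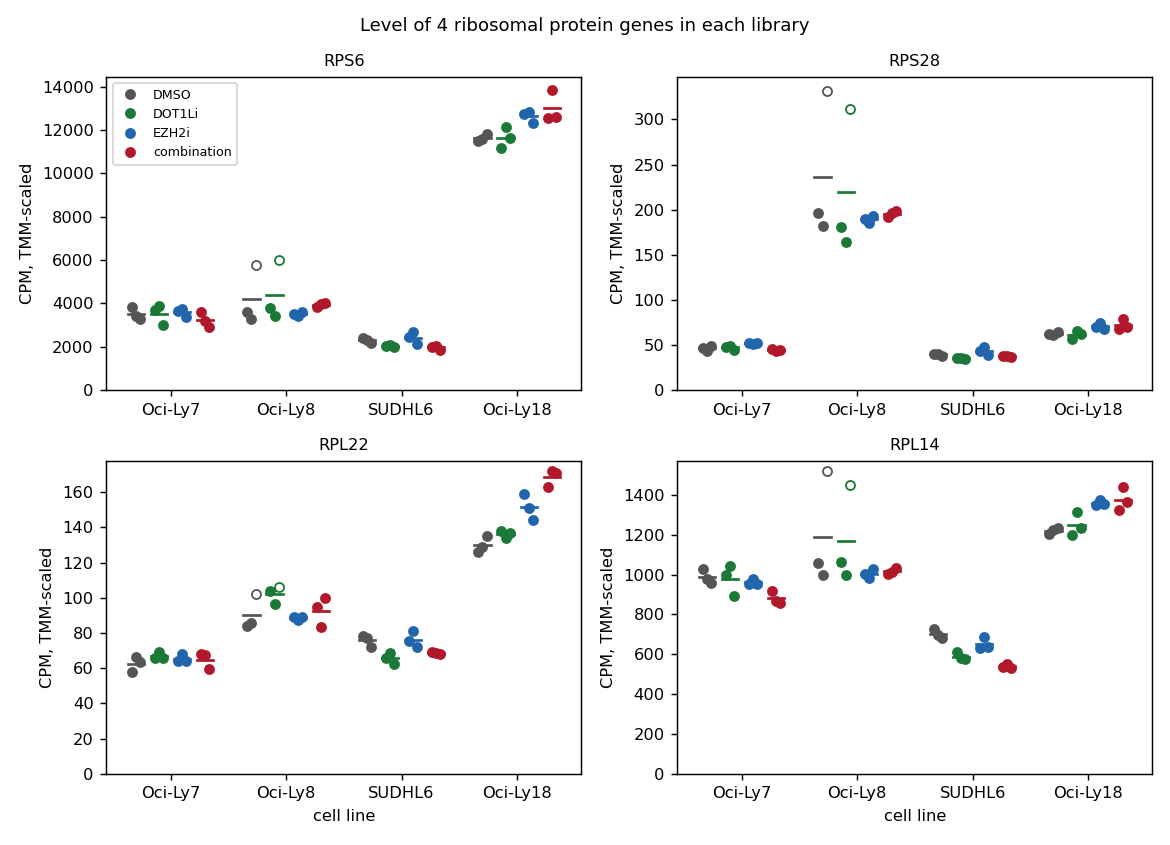
Level of RPS6, RPS28, RPL22 and RPL14 in each library (CPM, TMM-scaled, each axis from 0), by cell line and treatment, with bars at group means and open circles for the 2 Oci-Ly8 libraries that stood apart. RPS6 is high in every Oci-Ly18 library and RPS28 in every Oci-Ly8 library, while the combination libraries of Oci-Ly18 sit above its DMSO libraries for RPL22 and RPL14, and those of SUDHL6 below for RPL14.

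By role, none of the stalk proteins, which recruit elongation factors, was called in SUDHL6 with all libraries or without the 2. RPLP2 read 1330, 1296 and 1311 CPM there in DMSO and 1205, 1264 and 1209 with the combination, with no overlap, at -0.10 (adjusted p = 0.65 with all libraries, 0.137 without the 2 and 0.0262 with the 12 SUDHL6 libraries alone). It was at 0.11 in Oci-Ly18. RPL12 rose in Oci-Ly18 from 666, 673 and 707 CPM to 877, 916 and 830 (0.36, adjusted p = 0.00367) and was at -0.12 in SUDHL6. RPLP0 was at 0.20 and 0.01 and RPLP1 at 0.07 and 0.06 in Oci-Ly18 and SUDHL6, none of them called with all libraries. Of the partners of the 5S ribosomal RNA in SUDHL6, RPL11 was at -0.26 (adjusted p = 0.00648) and RPL5 at -0.22 (0.143 with all libraries and 0.000694 without the 2). RPL3, at the peptidyl transferase centre, was called higher in Oci-Ly18 at 0.23 (adjusted p = 0.0451) and stood at -0.06 in SUDHL6.

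Among small-subunit genes, RPS6 was at -0.23 in SUDHL6 and 0.16 in Oci-Ly18, neither called with all libraries. RPS14 and RPS19, whose shortage causes failure of red cell production, were at -0.28 and -0.13 in SUDHL6 and 0.17 and 0.12 in Oci-Ly18, again not called with all libraries. RPS18 was called higher in Oci-Ly18, at 0.32. RPSA, RPS2, RPS3 and RPS4X were each between -0.12 and -0.04 in SUDHL6 and between 0.15 and 0.22 in Oci-Ly18 without a call in the fit of all libraries.

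A smaller group was called lower on the average of the lines, though not all of it was lower in each line. RPL14, which belongs to it, read 1056, 996 and 1521 CPM in Oci-Ly8 DMSO and 1002, 1014 and 1034 with the combination. Over the average of the lines 13 genes were called lower with the combination and 0 higher (20.7% of all genes were called lower, so the share of 13 in 78 is not above the background); 12 of the 13, all but RPL41, were also called lower without the 2 Oci-Ly8 libraries. Leaving out single libraries gave from 9 to 25 calls, the second without the second Oci-Ly8 DMSO library, with no share of all genes given for those fits. The 5 with the smallest p were RPL17, RPL26, RPS27A, RPL27 and RPS15A. RPS27A, which is made as a fusion with ubiquitin (ENSG00000143947, chromosome 2, 55231903 to 55235853), was at -0.28 ± 0.07 (SE, adjusted p = 0.000578) and at -0.21 ± 0.03 without the 2 libraries. Its libraries went from 517, 485 and 474 CPM to 379, 365 and 353 in SUDHL6 and from 716, 621 and 614 to 578, 520 and 501 in Oci-Ly7. In Oci-Ly18 they went from 723, 766 and 822 to 767, 911 and 789 and overlapped.

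RPL27 was at -0.24 ± 0.06 (SE, adjusted p = 0.00159) on average and at -0.40 in SUDHL6, where it went from 506, 469 and 456 CPM to 345, 382 and 356. RPS21 was at -0.30 ± 0.09 on average (adjusted p = 0.00664), with -0.26 in Oci-Ly7, -0.65 in Oci-Ly8 (-0.26 without the 2 libraries) and -0.51 in SUDHL6 but 0.21 in Oci-Ly18. RPL26, which can bind the p53 message, was at -0.35 ± 0.08 on average (adjusted p = 0.0002). Its Oci-Ly7 DMSO libraries spread from 41.8 to 83.6 CPM and overlapped the combination libraries at 41.2 to 46.4, although the gene was the 1 call in that line (-0.45, adjusted p = 0.02; 12.2% of all genes were called lower). That call was lost without the first DMSO library or the second or the third combination library.

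RPL36A was called higher in SUDHL6 with the combination, from 10.7, 14.2 and 11.4 CPM to 15.4, 16.7 and 15.6 (0.39 ± 0.12 SE, adjusted p = 0.007), and called lower in Oci-Ly18, from 31.6, 31.1 and 31.3 to 26.3, 27.4 and 24.4 (-0.27 ± 0.11 SE, adjusted p = 0.0491). Both differences are opposite in sign to the set's medians in those lines.

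The fit without the 2 libraries gave 18 genes higher and 15 lower on average (26.3% and 21.4% of all genes were called higher and lower), with RPL31, RPS27 and RPL28 at the smallest p among the first and RPS27A, RPL27 and RPS21 among the second. In Oci-Ly8, 20 genes were called lower with all libraries (16.9% of all genes), and without the 2 libraries 11 were called higher and 7 lower (16.4% and 15.5%). The 11 included RPL3, RPLP0, RPLP1, RPS3, RPS4X and RPS27, and the 7 were RPL8, RPL17, RPL27, RPS21, RPS26, RPS27A and RPS29, each called in both fits. In Oci-Ly8 the large to small ratio also went from 1.83 ± 0.0093 in DMSO to 1.75 ± 0.013 with the combination (SD, n = 3), with no library overlapping; it was 1.84 in DMSO without the third library. In Oci-Ly7 the median was -0.05, and without the 2 libraries 9 genes were called lower (14.5% of all genes), RPS26, RPS27A and RPS21 among them.

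**Figure D5:**
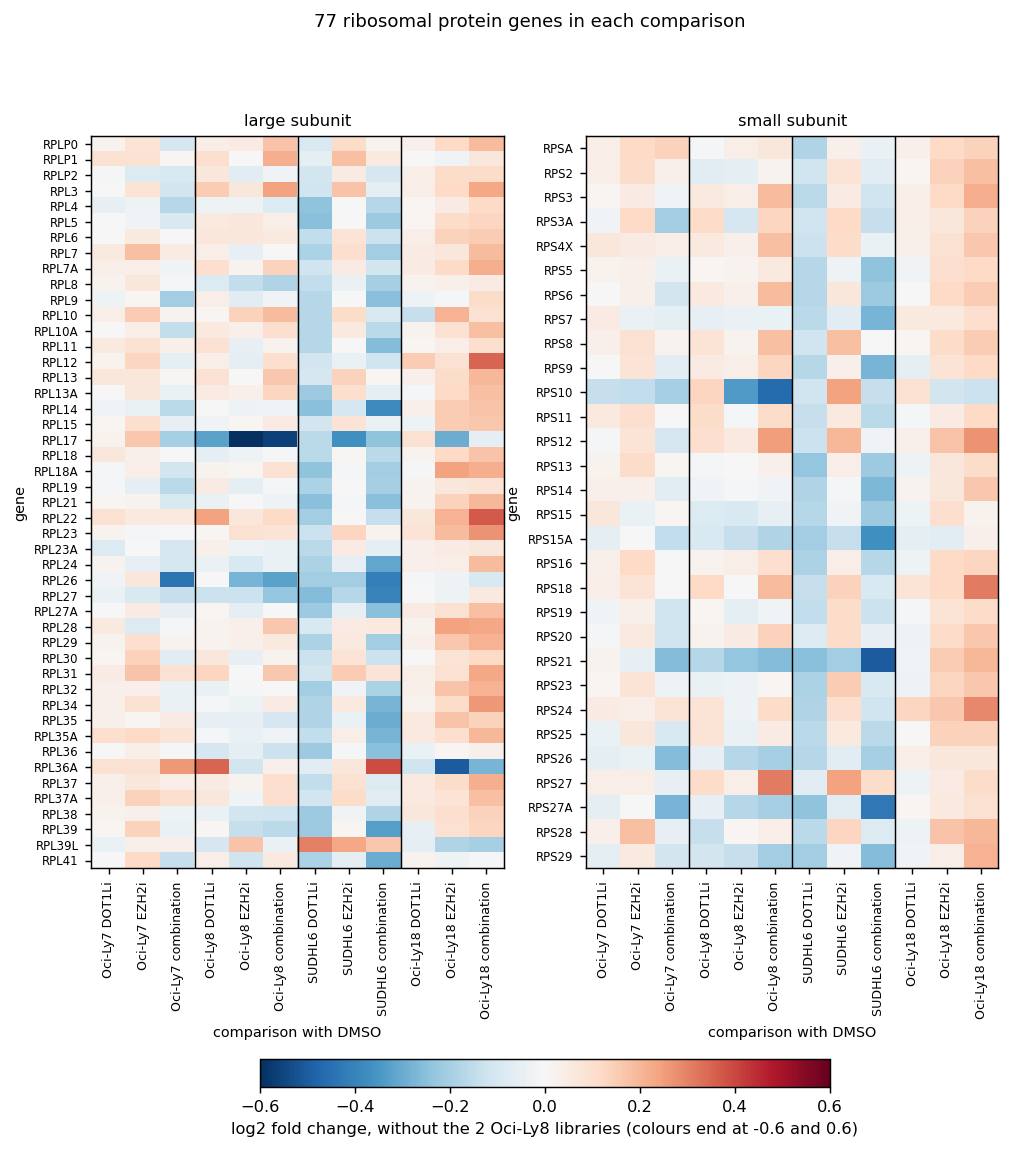
Log2 fold change against DMSO of 77 of the 78 genes in each of the 12 line and treatment comparisons, fitted without the 2 Oci-Ly8 libraries, large subunit left and small subunit right, with red for higher and blue for lower and colours ending at -0.6 and 0.6. The SUDHL6 columns for DOT1Li and the combination are mostly blue and the Oci-Ly18 columns for EZH2i and the combination mostly red, and RPL17, RPL26, RPL36A, RPL39L, RPS10 and RPS21 depart from their columns.

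The combination was also set against each single inhibitor. Against DOT1Li alone, 3 genes were lower on average (RPL26, RPL17 and RPS27A, at -0.26, -0.17 and -0.18; 15.8% of all genes were called lower), and without the 2 libraries 17 were higher (20.4% of all genes) and 5 lower. Against EZH2i alone, RPL36A was higher (0.21 ± 0.06 SE, adjusted p = 0.00505; 12.8% of all genes were called higher), and without the 2 libraries 19 were lower (15.2% of all genes) and RPL36A remained higher. The test for a departure from additivity of the 2 single effects called 0 of the 78 by edgeR and 0 by DESeq2, with 1 at an unadjusted p under 0.05, where 0.0507% of all genes were called.

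The genes of the mitochondrial ribosome and of ribosome assembly were mostly called lower with the combination averaged over lines, where 20.7% of all genes were called lower and 25.7% higher (21.4% and 26.3% without the 2 Oci-Ly8 libraries). The difference of these lists from the cytoplasmic set was not tested. Of the 77 tested mitochondrial ribosomal protein genes 61 were called lower and 0 higher, with a median log2 fold change of -0.24 against -0.07 for the cytoplasmic set and 0.08 for all genes. Of 30 assembly factors and dedicated chaperones 27 were lower and 0 higher, with a median of -0.30. BYSL, a factor of small-subunit maturation, was at -0.53 ± 0.04, and SBDS, which helps to release EIF6 from the large subunit, at -0.45 ± 0.04 (SE; adjusted p = 2.68e-14 and 7.71e-14). MRPL4 and MRPL19 of the mitochondrial large subunit were at -0.66 and -0.38. These counts were 59 of 77 and 27 of 30 without the 2 Oci-Ly8 libraries.

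In Oci-Ly18, where most of the cytoplasmic set lay above DMSO, the assembly factors had a median of -0.18 with 11 of 30 called lower and 1 higher, and the mitochondrial genes a median of -0.10 with 7 of 77 lower and 2 higher (14% of all genes were called lower and 21.1% higher). In the fit without the 2 libraries 17 assembly factors were lower and 1 higher, and 25 mitochondrial genes lower and 4 higher (17.6% of all genes lower and 23% higher). In SUDHL6 the medians were -0.52 and -0.40, with 27 of 30 and 58 of 77 lower (16.8% of all genes), and 27 and 67 without the 2 libraries (19% of all genes). Of the 30 tested translation factors and other messages with a TOP start 11 were lower and 1 higher on average, and without the 2 libraries 11 were lower and 8 higher. For this list and the next 2 the shares of all genes called on average were 20.7% lower and 25.7% higher, or 21.4% and 26.3% without the 2 libraries. EIF2S3, IPO5 and EIF3A were at -0.34, -0.31 and -0.25. Of the 16 snoRNA host genes 4 were higher and 4 lower on average, and 8 and 4 without the 2 libraries, with SNHG17 at -0.39 and SNHG5 and SNHG15 at 0.53 and -0.27. Among 22 regulators of ribosomal protein output 12 were lower and 3 higher on average, and 14 and 4 without the 2 libraries, including the cap-binding protein EIF4E at -0.37 and the mTOR inhibitor TSC2 at 0.32.

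Of 7 genes close to the set but outside its naming rule, 5 were lower with the combination on average and 0 higher (20.7% of all genes were called lower), and 6 and 0 without the 2 libraries (21.4%). RPL26L1 and RPL36AL, expressed copies of RPL26 and RPL36A, were at -0.41 ± 0.06 and -0.36 ± 0.06 (SE; adjusted p = 3.53e-07 and 3.94e-06), and RPS27L, a p53 target related to RPS27, at -0.26. RPL36AL went from 326 ± 2.3 to 223 ± 13.1 CPM in SUDHL6 and from 335 ± 11.7 to 337 ± 9.72 in Oci-Ly18 (SD, n = 3).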

How the data were processed

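The deposited table held raw read counts per Ensembl gene for all 48 libraries, made by the authors. STAR, DESeq2 and GRCh38 are named in the submitters' processing notes, while the counting program, its strand setting, its treatment of reads with several matches and the annotation were not given in the sources used here. Groups came from the labels. Genes with low counts were removed (filterByExpr), libraries were scaled by TMM, and edgeR 4.0.16 (R 4.3.3) was fitted to the 16 groups with glmQLFit and glmQLFTest (robust). A gene was called at a Benjamini-Hochberg adjusted p under 0.05 over all tested genes. The scripts were tested on simulated data. Alternatives were DESeq2 1.42.0, other scalings, no filter, a replicate block, each line alone, and leaving out libraries. Sums and medians over the set carry no test. The set, the gene lists and the tests were chosen with earlier results of these data known. Genes were named by a panel of roles, by smallest adjusted p among called genes in each comparison, and by smallest p for differences between lines; RPS9, RPS21, RPL21, RPS24, RPL19 and RPS10 were named after their values were seen. The individual values of 1 member are not reported here. Promoter sequences are RefSeq's (GRCh38.p14).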

Additional observations from a re-analysis of the deposited data

Results flagged for a closer look

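The treatment effects of some genes differed among the 4 lines by the F test of that difference (edgeR, adjusted over all tested genes). For DOT1Li 1 of the 78 genes did, RPL22 with an adjusted p of 0.0405. For EZH2i 2 did, RPL17 at 0.000447 and RPL36A at 0.0084. The values of both are uncertain, since readthrough neighbours or near-identical copies can share or remove their reads. For the combination 16 did, with RPL22 at 0.000207, RPL36A at 0.00133 and RPL14 at 0.00408. What lies behind these differences was not tested.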

How the results depend on the processing

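The median shifts of SUDHL6 with DOT1Li and with the combination stayed below 0, and that of Oci-Ly18 with the combination above 0, under each alternative run for them. The numbers of genes called varied much more, and the 2 Oci-Ly8 libraries that stood apart bear on most of them. The counts in this section are given without the share of all genes called in the same fit. They show how the calls depend on the processing and are not set against a background. RPLP1 in the combination averaged over lines went from 0 to 0.09 without them. The cause of each change was not tested. Without the 2 Oci-Ly8 libraries that stood apart, the number of genes called was 3 for EZH2i in Oci-Ly7 (from 0), 11 for the combination in Oci-Ly7 (from 1), 1 for DOT1Li in Oci-Ly8 (from 0), 1 for EZH2i in Oci-Ly8 (from 21), 31 for DOT1Li in SUDHL6 (from 0), 8 for EZH2i in SUDHL6 (from 1), 42 for the combination in SUDHL6 (from 9), 16 for EZH2i in Oci-Ly18 (from 3), 45 for the combination in Oci-Ly18 (from 5), 3 for DOT1Li averaged over lines (from 0), 24 for EZH2i averaged over lines (from 3), 33 for the combination averaged over lines (from 13), 22 for the combination against DOT1Li averaged over lines (from 3), 20 for the combination against EZH2i averaged over lines (from 1), 6 for the DOT1Li difference between lines (from 1), 7 for the EZH2i difference between lines (from 2) and 60 for the combination difference between lines (from 16). Without the 2 Oci-Ly8 libraries that stood apart, the median log2 fold change was -0.02 for EZH2i in Oci-Ly8, 0.04 for the combination in Oci-Ly8, 0.05 for EZH2i averaged over lines and 0 for the combination averaged over lines. With the 12 libraries of Oci-Ly7 alone, the number of genes called was 1 for EZH2i in Oci-Ly7 (from 0) and 8 for the combination in Oci-Ly7 (from 1). With library totals and no TMM, the number of genes called was 2 for the combination in Oci-Ly7 (from 1), 1 for DOT1Li in Oci-Ly8 (from 0), 12 for EZH2i in Oci-Ly8 (from 21), 9 for the combination in Oci-Ly8 (from 20), 2 for EZH2i in SUDHL6 (from 1), 4 for the combination in SUDHL6 (from 9), 5 for EZH2i in Oci-Ly18 (from 3), 29 for the combination in Oci-Ly18 (from 5), 0 for the DOT1Li difference between lines (from 1) and 10 for the EZH2i difference between lines (from 2). With library totals and no TMM, the median log2 fold change was 0.1 for EZH2i in Oci-Ly7, -0.24 for EZH2i in Oci-Ly8, -0.1 for the combination in Oci-Ly8, -0.11 for DOT1Li in SUDHL6, -0.04 for the combination in SUDHL6, 0.13 for EZH2i in Oci-Ly18, 0.24 for the combination in Oci-Ly18, 0.03 for EZH2i averaged over lines and 0.02 for the combination averaged over lines. With library totals and no TMM, the summed CPM was 61694 for Oci-Ly8 EZH2i, 44676 for SUDHL6 DMSO, 41658 for SUDHL6 DOT1Li, 48714 for SUDHL6 EZH2i, 44347 for SUDHL6 combination, 82775 for Oci-Ly18 DMSO and 90748 for Oci-Ly18 EZH2i. With no filter on low counts, the number of genes called was 4 for the combination in Oci-Ly7 (from 1), 63 for EZH2i in Oci-Ly8 (from 21), 39 for the combination in Oci-Ly8 (from 20), 5 for DOT1Li in SUDHL6 (from 0), 2 for EZH2i in SUDHL6 (from 1), 35 for the combination in SUDHL6 (from 9), 14 for the combination in Oci-Ly18 (from 5), 9 for EZH2i averaged over lines (from 3), 30 for the combination averaged over lines (from 13), 12 for the combination against DOT1Li averaged over lines (from 3), 6 for the combination against EZH2i averaged over lines (from 1), 0 for the DOT1Li difference between lines (from 1), 60 for the EZH2i difference between lines (from 2), 56 for the combination difference between lines (from 16) and 39 for the Oci-Ly7 DMSO level (from 25). With the replicate block, the number of genes called was 3 for the combination in Oci-Ly7 (from 1), 1 for DOT1Li in Oci-Ly8 (from 0), 44 for EZH2i in Oci-Ly8 (from 21), 3 for DOT1Li in SUDHL6 (from 0), 3 for EZH2i in SUDHL6 (from 1), 26 for the combination in SUDHL6 (from 9), 6 for EZH2i in Oci-Ly18 (from 3), 19 for the combination in Oci-Ly18 (from 5), 5 for the combination against DOT1Li averaged over lines (from 3), 5 for the combination against EZH2i averaged over lines (from 1), 32 for the EZH2i difference between lines (from 2) and 40 for the combination difference between lines (from 16). With the replicate block, the median log2 fold change was -0.26 for EZH2i in Oci-Ly8. With DESeq2's test, the number of genes called was 1 for DOT1Li in Oci-Ly8 (from 0), 1 for DOT1Li in SUDHL6 (from 0), 8 for the combination in Oci-Ly18 (from 5) and 2 for the combination against EZH2i averaged over lines (from 1). With DESeq2's test, the median log2 fold change was -0.18 for the combination in Oci-Ly8. With DESeq2 size factors in edgeR, the number of genes called was 12 for EZH2i in Oci-Ly8 (from 21). With DESeq2 size factors in edgeR, the median log2 fold change was -0.18 for the combination in Oci-Ly8. With the 12 libraries of Oci-Ly8 alone, the number of genes called was 2 for EZH2i in Oci-Ly8 (from 21) and 2 for the combination in Oci-Ly8 (from 20). With the 12 libraries of SUDHL6 alone, the number of genes called was 40 for DOT1Li in SUDHL6 (from 0), 10 for EZH2i in SUDHL6 (from 1) and 50 for the combination in SUDHL6 (from 9). With the 12 libraries of Oci-Ly18 alone, the number of genes called was 2 for DOT1Li in Oci-Ly18 (from 0), 19 for EZH2i in Oci-Ly18 (from 3) and 51 for the combination in Oci-Ly18 (from 5). With the 12 libraries of Oci-Ly18 alone, the median log2 fold change was 0.08 for EZH2i in Oci-Ly18. Leaving out each library in turn gave counts of 0 to 1 for EZH2i in Oci-Ly7, 0 to 1 for the combination in Oci-Ly7, 0 to 19 for DOT1Li in Oci-Ly8, 1 to 69 for EZH2i in Oci-Ly8, 3 to 50 for the combination in Oci-Ly8, 0 to 1 for EZH2i in SUDHL6, 4 to 10 for the combination in SUDHL6, 1 to 3 for EZH2i in Oci-Ly18, 2 to 6 for the combination in Oci-Ly18, 0 to 2 for DOT1Li averaged over lines, 1 to 5 for EZH2i averaged over lines, 9 to 25 for the combination averaged over lines, 2 to 8 for the combination against DOT1Li averaged over lines, 1 to 4 for the combination against EZH2i averaged over lines, 0 to 5 for the DOT1Li difference between lines, 2 to 48 for the EZH2i difference between lines and 4 to 40 for the combination difference between lines. The same gave medians of 0.03 to 0.11 for EZH2i in Oci-Ly7, -0.43 to -0.02 for EZH2i in Oci-Ly8, -0.36 to 0.04 for the combination in Oci-Ly8, 0.09 to 0.12 for EZH2i in Oci-Ly18, -0.05 to 0.06 for EZH2i averaged over lines and -0.1 to 0 for the combination averaged over lines. The labels do not say that a replicate number marks a shared batch. Of 72 pairs of libraries with the same number in a line, the correlations of deviations were all positive. They ran from 0.0195 to 0.415, and 17 were over 0.1. The numbers were not taken to pair the samples, and the replicate block was kept as an alternative. Whether the numbers mark a shared batch was not tested. The third libraries of SUDHL6 were an exception, with all 6 of their pairs over 0.1 (0.123 to 0.182), and the block moved the combination count in SUDHL6 from 9 to 26.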
